A study of Mus musculus with 6 samples.

Results

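The 9 genes Ubb, Ube2o, Ube2h, Fbxo7, Fbxo9, Trim10, Trim58, Rnf11 and Rnf123 encode ubiquitin and enzymes that conjugate or ligate it, and were chosen as the ubiquitin genes and enzymes of late erythroid cells. They were taken by symbol from the 27179 genes of the deposited count files, and all 9 were found and passed the filter on low counts, which left 2693 genes to test. The libraries came from circulating red cells of 6 individual male BalB/c mice: 3 carried 1 copy of a missense allele of the mRNA export receptor gene Nxf1 (Nxf1+/C587R, called mutants here) and 3 were wild-type littermates (Nxf1+/+). The sources used here give no ages, and the labels name no treatment. The cells were pelleted through Ficoll from blood drawn by cardiac puncture, and each suspension had been checked by flow cytometry for CD41+ platelets, CD45+ cells and DRAQ5+ nucleated cells. The mutants carry the allele in every tissue, so these groups do not separate an effect inside the red cell lineage from one outside it. A batch label of 1, 2 or 3 was shared by 1 mutant and 1 wild-type library each.

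A reticulocyte leaves the bone marrow without a nucleus and then loses its ribosomes, its mitochondria and much of its membrane while it becomes a red cell. Ubiquitin marks proteins for the proteasome in this remodeling: an E1 enzyme activates ubiquitin, an E2 enzyme carries it, and an E3 ligase brings the E2 to the substrate. A circulating red cell no longer transcribes its genes, so its own RNA is what remains of transcripts made before the nucleus was expelled.

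The libraries held 14636739 to 15790336 counts, of which globin genes took 88.1 to 89.3%, so that 1627997 to 1877571 counts were left for all other genes. Wild-type library 1 stood apart: 4096 genes had 10 or more counts in it, against 2741 and 3401 in the other wild types and 2103 to 2772 in the mutants, and it held 354 counts of exocrine pancreas markers, against 0 to 2 elsewhere. Nxf1 itself had 9, 7 and 11 counts in mutants 1 to 3 and 15, 10 and 20 in wild types 1 to 3, and a missense allele does not show in a count of its gene. The label was checked with an erythroid list of 10 genes, which took 91.05 to 91.79% of the counts in every library. This list includes globin genes and is led by Hba-a2 and Hba-a1, so its share largely repeats the globin share above. A list of 6 reticulocyte-stage genes, led by Bpgm, summed to 63380 to 72171 counts in the mutants and 87850 to 95650 in the wild types. This was 0.418 to 0.493% of all counts in the mutants and 0.592 to 0.606% in the wild types. The list was not summed on any other scale. Hepatocyte markers, led by Alb and Trf, summed to 1686 to 3742 counts in the mutants and 13 to 92 in the wild types. Markers of T and NK cells summed to 21 to 37 counts in the mutants and 66 to 156 in the wild types, of B cells to 155 to 273 and 282 to 708, of neutrophils to 941 to 1896 and 1637 to 2126 (Elane 0 in all), of platelets to 57 to 168 and 139 to 273, and of monocytes and macrophages to 139 to 298 and 154 to 248 (C1qb 0 in all). The part that these other lists had in the results below was not tested. If reticulocyte RNA differed, bulk RNA could not tell fewer reticulocytes among the red cells from less RNA in each reticulocyte.

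Levels of different genes are compared only per length, as RPKM (CPM with TMM scaling divided by the gene's length in kilobases, averaged over the 6 libraries), where CPM is a count over the library total, put on a standard scale. On this scale Ubb was the most abundant of the 9, with a mean of 153 RPKM, which placed it 46th among the 2693 genes tested. Rnf11 followed with 53.1 RPKM (88th) and Ube2o with 42.2 RPKM (98th). Trim10 had 12.5 RPKM (194th), Fbxo7 10.2 RPKM (223rd) and Fbxo9 4.45 RPKM (335th). Rnf123 with 1.93 RPKM (573rd), Trim58 with 1.53 RPKM (674th) and Ube2h with 0.715 RPKM (1120th) were the least abundant. Neighbours in this order overlapped over the libraries in 3 places. Rnf11 ranged from 44.7 to 59.6 RPKM and Ube2o from 34.7 to 52.0 RPKM. Trim10 ranged from 7.66 to 19.4 RPKM and Fbxo7 from 7.68 to 11.6 RPKM. Rnf123 ranged from 1.56 to 2.30 RPKM and Trim58 from 1.33 to 1.69 RPKM.

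The F-box pair and the TRIM pair led their families, while the E2 and RING genes ranked lower in theirs. Fbxo7 and Fbxo9 ranked 1 and 2 of 54 F-box proteins listed, with Fbxw2 next at 0.782 RPKM. Trim10 and Trim58 ranked 1 and 2 of 54 TRIM proteins, with Trim59 next at 0.665 RPKM. Among 35 E2 enzymes Ube2o ranked 3, after Ube2l6 (4071 RPKM), which carries the ubiquitin-like protein Isg15, and Ube2r2 (319 RPKM), an E2 of cullin-RING ligases, and Ube2h ranked 12. In a list of 92 RING ligases and associated proteins outside the TRIM family, Rnf11 ranked 4, after Marchf2 (517 RPKM), Rnf10 (265 RPKM) and Dcaf12 (54.2 RPKM, a receptor protein of cullin-RING ligases), and Rnf123 ranked 8. Dcaf12 and Rnf11 were less far apart than the spread of Rnf11 over the libraries.

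**Figure D1:**
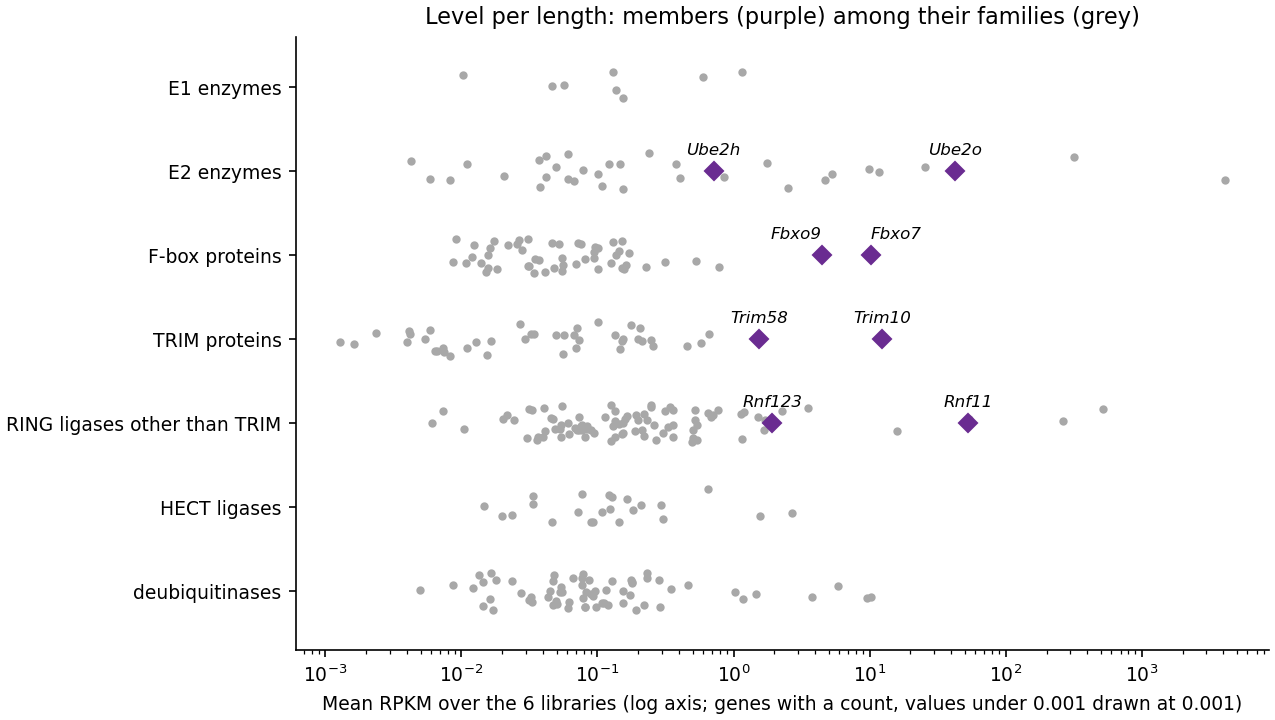
Mean level per gene length over the 6 libraries (horizontal log axis, RPKM) for the genes with a count in 7 families of the ubiquitin system (rows). Each point is 1 gene, purple diamonds are 8 of the 9 genes (Ubb is not drawn) and grey points the rest of the family, spread vertically only for legibility. Fbxo7 (10.2 RPKM) and Fbxo9 (4.45 RPKM) lie to the right of all other F-box proteins, and Trim10 (12.5 RPKM) and Trim58 (1.53 RPKM) to the right of all other TRIM proteins.

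For 5 of the 9 genes the RefSeq promoter table of GRCm38.p6, the build that mm10 names, gave at least 100 bases before the outermost start of the gene. All 5 are shown, and fold change played no part in the choice. They include the 3 genes with the lowest mutant to wild-type fold change (Trim10, Fbxo9, Ubb) and the one with the highest (Ube2h), as well as Trim58, the second TRIM gene. Each is printed 5′ to 3′ up to the last base before the gene, with matches in capitals. The windows are chr11:62550921-62551170 on the plus strand for Ubb, chr6:30304540-30304789 on the minus strand for Ube2h, chr9:78109066-78109315 on the minus strand for Fbxo9, chr17:36869324-36869495 on the plus strand for Trim10 and chr11:58640215-58640464 on the plus strand for Trim58. The motifs were searched on both strands: GATA words (AGATAA and AGATAG, and the same with TGATA at the start, which are words bound by the erythroid factor Gata1), a CACCC-type word (CCNCNCCC, the kind bound by Klf1) and a heat shock element core (GAANNTTC).
Ubb: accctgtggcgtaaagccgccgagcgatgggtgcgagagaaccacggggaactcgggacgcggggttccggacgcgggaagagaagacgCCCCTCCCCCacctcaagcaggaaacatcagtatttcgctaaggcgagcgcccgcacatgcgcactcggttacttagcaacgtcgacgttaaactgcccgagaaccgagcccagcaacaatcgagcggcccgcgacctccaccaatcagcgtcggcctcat
Ube2h: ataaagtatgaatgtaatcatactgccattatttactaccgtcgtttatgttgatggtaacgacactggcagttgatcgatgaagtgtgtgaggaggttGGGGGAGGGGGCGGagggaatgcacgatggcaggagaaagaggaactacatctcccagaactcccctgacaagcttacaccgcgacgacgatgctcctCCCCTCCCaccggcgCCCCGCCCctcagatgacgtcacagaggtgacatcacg
Fbxo9: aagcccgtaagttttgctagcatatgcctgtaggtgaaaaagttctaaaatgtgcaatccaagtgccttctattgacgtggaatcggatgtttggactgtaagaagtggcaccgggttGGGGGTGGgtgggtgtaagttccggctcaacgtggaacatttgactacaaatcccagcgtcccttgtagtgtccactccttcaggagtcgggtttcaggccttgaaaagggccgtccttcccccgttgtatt
Trim10: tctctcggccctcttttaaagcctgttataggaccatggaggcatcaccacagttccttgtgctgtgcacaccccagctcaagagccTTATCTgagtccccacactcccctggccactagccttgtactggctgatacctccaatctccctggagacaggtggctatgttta
Trim58: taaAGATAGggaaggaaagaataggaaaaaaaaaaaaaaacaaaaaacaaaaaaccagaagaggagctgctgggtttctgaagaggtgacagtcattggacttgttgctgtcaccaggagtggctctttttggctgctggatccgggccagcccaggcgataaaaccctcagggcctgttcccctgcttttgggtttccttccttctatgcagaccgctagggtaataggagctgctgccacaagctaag

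In these windows Trim10 and Trim58 had 1 GATA word each, TTATCT starting 85 bases before the gene in Trim10 and AGATAG starting 247 bases before it in Trim58, and the other 3 had none. The CCNCNCCC word was found 5 times in Ube2h, of which 3 overlap one another, 2 times with overlap in Ubb and once in Fbxo9, and in neither TRIM gene. GAANNTTC was found in none of the 5. Among all 32851 windows of the table, the first 250 bases held a GATA word in 26.5%, CCNCNCCC in 45.9% and GAANNTTC in 6.69%. In the first 172 bases, the length shown for Trim10, the shares were 20.8, 30.4 and 4.50%. A match is only a run of letters and not evidence of binding.

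Ubb (chr11:62551171-62553213) encodes polyubiquitin, a head-to-tail chain of ubiquitin repeats that is cut into single ubiquitins. It had 1818, 1928 and 2088 counts in mutants 1 to 3 and 3325, 3623 and 4089 counts in wild types 1 to 3. All 3 mutants lay below all 3 wild types, at 130 ± 11.7 against 240 ± 22.9 CPM of all counts (SD, n = 3 each). How far this is a difference in Ubb depends on what the counts are set against. With TMM scaling, which centres the bulk of genes on no change, the log2 fold change was −0.36 (SE 0.19) and did not pass (edgeR quasi-likelihood test, adjusted p = 0.348). With total counts it was −0.89 (SE 0.12, adjusted p = 0.000131), while the median of all genes tested was −0.53 with total counts and −0.0022 with TMM. In batches 1, 2 and 3 the TMM-scaled log2 difference of Ubb, mutant minus wild type, was 0.07, −0.56 and −0.54, and the log2 difference of CPM of all counts was −0.84, −0.96 and −0.86.

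Ubb-ps, a transcribed pseudogene of Ubb on chromosome 14, had 719, 769 and 853 counts in the mutants and 1377, 1480 and 1624 in the wild types. Its ratio to Ubb was nearly the same in every library, 0.401 ± 0.00677 in mutants and 0.407 ± 0.00864 in wild types (SD, n = 3 each, 2-sided exact permutation p = 0.5). Because the ubiquitin repeats of these genes are nearly identical and the sources used here do not say how reads that map to several places were counted, Ubb and Ubb-ps are uncertain one by one. Rps27a, which encodes ubiquitin fused to a ribosomal protein, had 1 count in each mutant and 2, 4 and 5 in the wild types.

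Ube2o (chr11:116537740-116581503) is a large E2 that also acts as its own ligase and is known for marking ribosomal proteins in reticulocytes. It had 2904, 2883 and 3019 counts in the mutants and 3716, 3294 and 4159 in the wild types. In CPM of all counts all 3 mutants lay below the wild types, at 196 ± 9.32 against 242 ± 19.9 (SD, n = 3 each), whereas on the TMM scale the groups overlapped, at 238 ± 32.4 against 201 ± 18.1 CPM. The log2 fold change was 0.24 with TMM (SE 0.18, edgeR adjusted p = 0.575) and −0.31 with total counts (SE 0.11, adjusted p = 0.0795). It passed once batch was added to the total-count fit (−0.31, adjusted p = 0.00904). Relative to the median of all genes, −0.53, the total-count value of Ube2o was higher.

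Ube2h (chr6:30211289-30304539) is the E2 that works with the CTLH ligase complex, and it is known to rise in terminal erythroid maturation. It was sparse here, with 43, 44 and 60 counts in the mutants and 54, 56 and 51 in the wild types. The groups overlapped in CPM of all counts, with mutant 3 the highest of the 6 libraries. On the TMM scale the mutants lay just above the wild types, at 3.63 to 4.08 against 2.57 to 3.62 CPM. Its log2 fold change was 0.42 with TMM (SE 0.25, edgeR adjusted p = 0.436) and −0.10 with total counts (SE 0.29, adjusted p = 0.800). Of 11 CTLH subunits listed, 6 were tested and none was called with TMM, at a median log2 fold change of −0.15, against −0.0022 for all genes. With total counts, which called 8.68% of all genes lower and moved their median to −0.53, 3 of the 6 were lower, namely Ypel5 and the scaffold proteins Ranbp10 (−0.70, edgeR adjusted p = 0.0109) and Wdr26 (−0.68, adjusted p = 0.0177).

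Fbxo7 and Fbxo9 are F-box proteins, the substrate receptors of SCF cullin-RING ligases. Fbxo7, which also binds the proteasome regulator Psmf1, lies at chr10:86020449-86051873. It had 223, 255 and 272 counts in the mutants and 299, 339 and 378 in the wild types. The groups did not overlap in CPM of all counts, but they did on the TMM scale (18.5 to 21.0 CPM in mutants, 14.5 to 21.9 CPM in wild types). Its log2 fold change was 0.12 with TMM (SE 0.21, edgeR adjusted p = 0.843) and −0.41 with total counts (SE 0.18, adjusted p = 0.142). Its span overlaps the gene Syn3, which had 1 to 7 counts per library. Psmf1 had 1022, 1165 and 1213 counts in the mutants and 1444, 1620 and 1493 in the wild types, with a TMM log2 fold change of 0.13 (SE 0.19, edgeR adjusted p = 0.818).

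Fbxo9 (chr9:78081499-78109065) had 79, 97 and 123 counts in the mutants and 208, 182 and 265 in the wild types. Every mutant lay below every wild type under both scalings, at 6.66 ± 1.62 against 14.2 ± 2.30 CPM of all counts and 7.90 ± 0.515 against 11.7 ± 1.64 CPM with TMM (SD, n = 3 each). The log2 fold change was −0.57 with TMM (SE 0.21) and did not pass (edgeR adjusted p = 0.141, and 0.229 after batch was added), and −1.09 with total counts (SE 0.24, adjusted p = 0.00618). Mutant and wild type differed in the same direction in each batch, by −0.45, −0.55 and −0.67 on the TMM log2 scale. Against its fellow F-box gene the difference needs no scaling: the ratio of Fbxo9 to Fbxo7 counts was 0.354, 0.380 and 0.452 in the mutants and 0.696, 0.537 and 0.701 in the wild types. The groups did not overlap, with a 2-sided exact permutation p of 0.100, the smallest possible. The share of all genes tested without overlap over Fbxo7 was not computed.

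Trim10 and Trim58 are TRIM ligases of the erythroid lineage: Trim58 is known to mark the dynein motor when erythroblasts expel the nucleus, and Trim10 is needed for terminal maturation in erythroid cell models. Trim10 (chr17:36869496-36877833) had 185, 249 and 387 counts in the mutants and 430, 673 and 782 in the wild types. Its SD relative to its mean was the largest of the 9 in each group. In CPM of all counts it ranged from 12.2 to 26.4 in the mutants and from 27.8 to 49.5 in the wild types, without overlap, but on the TMM scale mutant 3 (26.3 CPM) lay above wild type 1 (20.8 CPM). The log2 fold change was −0.69 with TMM (SE 0.26, edgeR adjusted p = 0.140) and −1.16 with total counts (SE 0.28, adjusted p = 0.0187).

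Trim10 was the one gene of the 9 whose TMM call changed between settings. When batch was added it was −0.65 (edgeR adjusted p = 0.0684). When the low-count filter was applied before TMM it was −0.72 (adjusted p = 0.0718), where 1.06% of genes were called lower and 5.99% higher. With that order and batch added it passed at −0.69 (edgeR adjusted p = 0.00514), where 2.09% were lower and 6.91% higher. It also passed without wild-type library 1 (−0.92, adjusted p = 0.00280), where 2.13% were lower and 7.39% higher, and without batch 1 (−0.82, adjusted p = 0.0196), where 1.54% were lower and 6.0% higher. Leaving out any other library or batch gave no call of Trim10 (edgeR adjusted p = 0.205 to 0.538). In batches 1, 2 and 3 the TMM-scaled log2 difference was −0.28, −1.08 and −0.58, lower in the mutant each time.

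Trim58 (chr11:58640465-58652404) had 39, 45 and 51 counts in the mutants and 60, 53 and 60 in the wild types. The mutants lay below the wild types in CPM of all counts (2.57 to 3.48 against 3.60 to 3.87) and above them on the TMM scale (3.47 to 3.71 against 2.91 to 3.42 CPM). Its log2 fold change was 0.21 with TMM (SE 0.24, edgeR adjusted p = 0.754) and −0.32 with total counts (SE 0.28, adjusted p = 0.398). The pair thus lay on opposite sides of 0 with TMM, but the groups overlapped in the ratio of Trim10 to Trim58 counts, which was 4.74, 5.53 and 7.59 in the mutants and 7.17, 12.7 and 13.03 in the wild types (2-sided exact permutation p = 0.200).

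Rnf11 and Rnf123 are RING ligases. Rnf11 (chr4:109452857-109476505) is a small RING protein that takes part, with Tax1bp1, in the complex that restrains NF-kappa-B signaling. It had 1303, 1542 and 1497 counts in the mutants and 1970, 1909 and 2192 in the wild types. In CPM of all counts the mutants lay lower, at 96.4 ± 9.16 against 132 ± 6.13 (SD, n = 3 each), and on the TMM scale the groups overlapped. The log2 fold change was 0.09 with TMM (SE 0.18, edgeR adjusted p = 0.871) and −0.45 with total counts (SE 0.13), which passed (adjusted p = 0.0328) though it was smaller than the median shift of all genes. Tax1bp1 had 155, 149 and 155 counts in the mutants and 271, 266 and 340 in the wild types, with a TMM log2 fold change of −0.35 (SE 0.21, edgeR adjusted p = 0.440) and −0.90 with total counts (adjusted p = 0.00517).

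Rnf123 (chr9:108051672-108080352), also known as Kpc1, is the catalytic part of a ligase for the cell cycle inhibitor Cdkn1b and pairs with Ubac1. It had 83, 110 and 130 counts in the mutants and 139, 154 and 150 in the wild types. The mutants lay lower in CPM of all counts, and the groups overlapped on the TMM scale. Its log2 fold change was 0.09 with TMM (SE 0.22, edgeR adjusted p = 0.905) and −0.42 with total counts (SE 0.24, adjusted p = 0.216). Overlapping genes Gmppb and Amigo3 had at most 5 and 2 counts. Ubac1 had 540, 616 and 756 counts in the mutants and 900, 1039 and 1288 in the wild types (TMM log2 fold change −0.20, SE 0.20, edgeR adjusted p = 0.694).

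**Figure D2:**
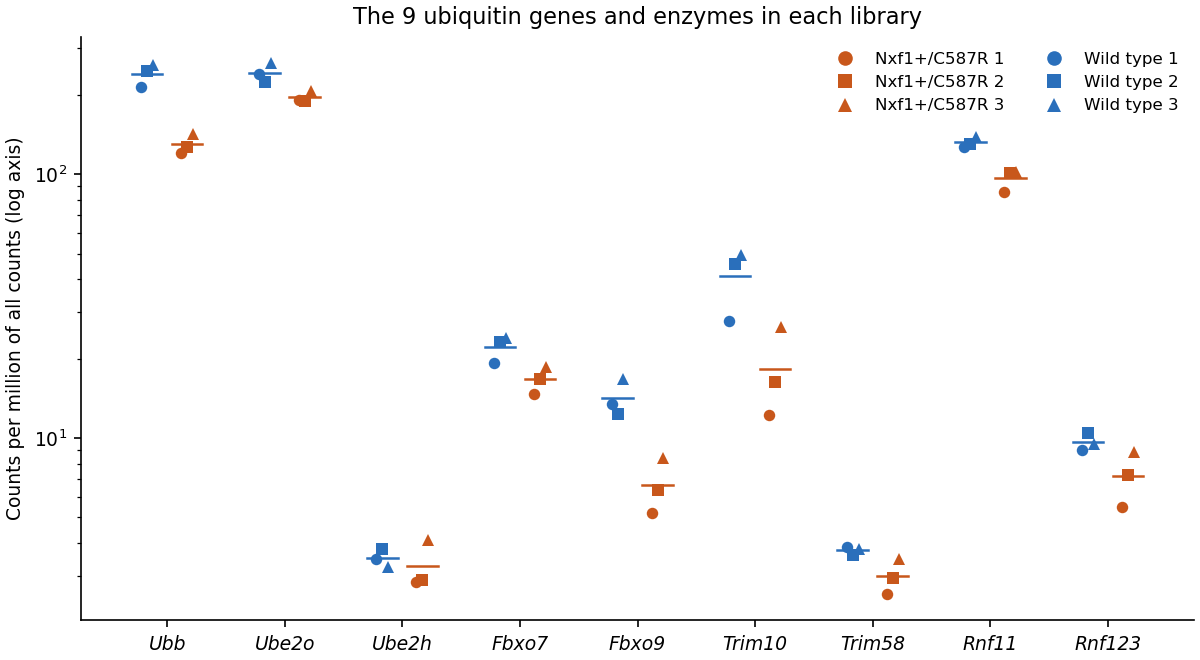
CPM of all counts (vertical log axis) of the 9 genes in each of the 6 libraries. Blue points are wild types, orange points mutants, shapes mark the batch and bars are group means (n = 3). In 8 genes all 3 mutants lie below all 3 wild types, and in Ube2h the groups overlap.

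Counted together, none of the 9 genes was called in either direction with TMM, where 6.54% of the 2693 genes tested were called higher and 0.706% lower (edgeR). Before adjustment 2 of the 9, Fbxo9 and Trim10, both lower, were under 0.05, as were 5.76% of all genes tested in the lower direction and 11.8% in the higher. DESeq2 called none of the 9, and of the 7474 genes with an adjusted p it called 3.51% higher and 0.0669% lower. Adding batch left none called, where 7.13% of genes were higher and 1.11% lower. With total counts Ubb, Fbxo9, Trim10 and Rnf11 were called lower and none higher, where 8.68% of 2823 genes were lower and 4.07% higher. When batch was added to the total-count fit Ube2o was called lower too, making 5 of the 9, where 12.8% of genes were lower and 4.29% higher.

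In CPM of all counts, 8 of the 9 genes were lower in every mutant than in every wild type and none was higher in every mutant. The first held for 31.0% of all genes tested and the second for 6.05%, and the first held for 38.2% of the 636 genes at least as abundant in mean CPM as the least abundant of the 9. On the TMM scale Fbxo9 was lower without overlap, as were 8.06% of all genes. Ube2h and Trim58 were higher without overlap, as were 14.6% of all genes and 25.5% of the 636 genes. The median log2 fold change of the 9 was 0.09 with TMM and −0.42 with total counts. That of the 636 genes was 0.13 and −0.40. Ube2o, Ube2h and Trim58 lay above both of these medians and the other 6 genes below both, from Fbxo7, Rnf11 and Rnf123, which were within 1 SE of them, to Fbxo9 and Trim10.

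**Figure D3:**
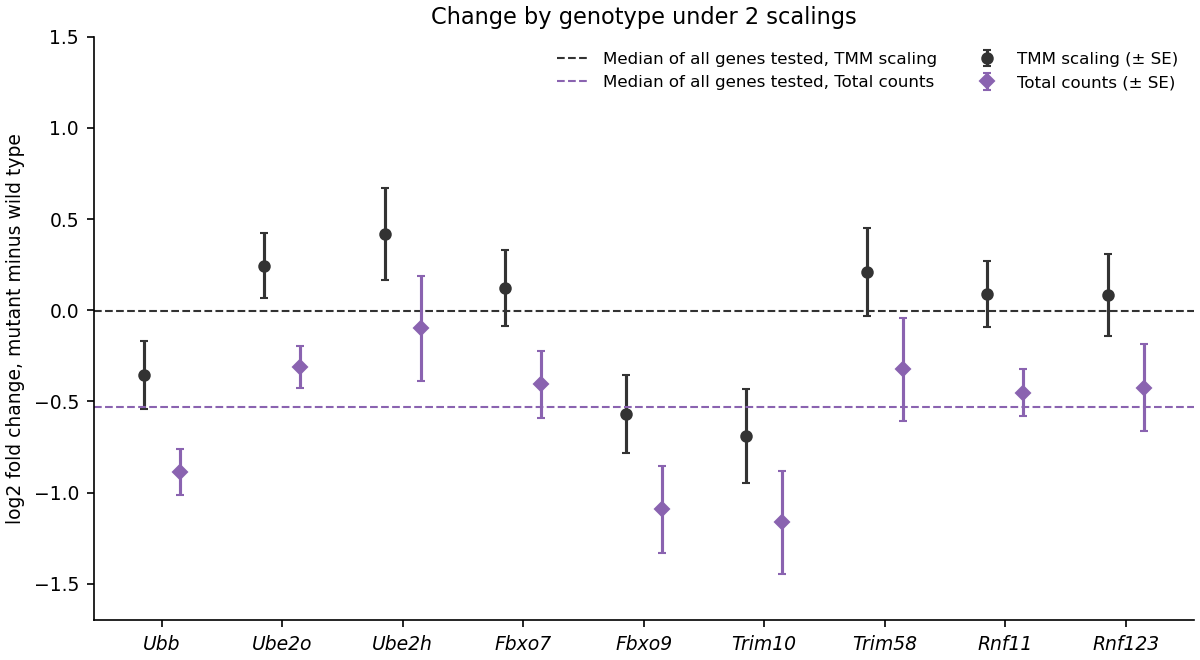
Log2 fold change, mutant minus wild type, of each of the 9 genes with TMM scaling (black circles) and with total counts (purple diamonds). Bars are ± 1 SE (n = 3 against 3) and dashed lines are the medians of all genes tested, −0.0022 with TMM and −0.53 with total counts. Ubb, Fbxo9 and Trim10 lie below the matching line under both scalings, and the other 6 lie above it.

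Summed, the 9 genes took 0.0440, 0.0469 and 0.0521% of all counts in mutants 1 to 3 and 0.0658, 0.0699 and 0.0768% in wild types 1 to 3. The group means were 0.0477 ± 0.00410% and 0.0708 ± 0.00554% (SD, n = 3 each), without overlap. Outside globin genes the shares were 0.437 ± 0.0313% and 0.620 ± 0.0304%. The summed counts of the reticulocyte-stage list, given above, were also lower in every mutant than in every wild type. With TMM, however, the most abundant gene of that list, Bpgm, had a log2 fold change of 0.09 (edgeR adjusted p = 0.862). The part that the reticulocyte-stage list had in the sum of the 9 was not tested.

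How the sum was divided among the 9 needs no scaling factor. Ube2o made up 43.5, 40.3 and 39.6% of the sum in the mutants and 36.4, 32.0 and 34.3% in the wild types. Ubb made up 27.2, 27.0 and 27.4% in the mutants and 32.6, 35.2 and 33.7% in the wild types. All 3 mutants were therefore above the wild types for Ube2o and below them for Ubb. Rnf11 (20.2 ± 1.15 against 18.7 ± 0.622%), Fbxo7 (3.49 ± 0.130 against 3.12 ± 0.183%) and Ube2h (0.682 ± 0.0919 against 0.498 ± 0.0676%) also had higher shares in every mutant, and Fbxo9 a lower one (1.38 ± 0.216 against 2.00 ± 0.211%, SD, n = 3 each). The shares of Trim10, Trim58 and Rnf123 overlapped between the groups. Set over the same sum, 17.0% of all genes tested were higher and 7.28% lower without overlap. The 9 shares add up to 100%, so they are tied to one another and were not tested.

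The ratio of Ubb to Ube2o counts put these 2 abundant members side by side. It was 0.626, 0.669 and 0.692 in mutants 1 to 3 and 0.895, 1.10 and 0.983 in wild types 1 to 3, without overlap (2-sided exact permutation p = 0.100, the smallest possible). Of the 9 ratios computed between these genes and partners, only Ubb to Ube2o, Fbxo9 to Ube2o and Fbxo9 to Fbxo7 did not overlap. In all the others the groups overlapped. Rnf11 to Ube2o was 0.493 ± 0.0431 in the mutants and 0.546 ± 0.0295 in the wild types (SD, n = 3 each, exact permutation p = 0.300). Fbxo9 to Ubb and Trim10 to Ube2o overlapped too (exact permutation p = 0.300 and 0.200). The share of all genes tested without overlap over the same denominators was not computed. Over the sum of the 9, 7.28% of all genes tested were lower and 17.0% higher without overlap. With 9 ratios and a smallest p of 0.100, none can pass an adjusted threshold.

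**Figure D4:**
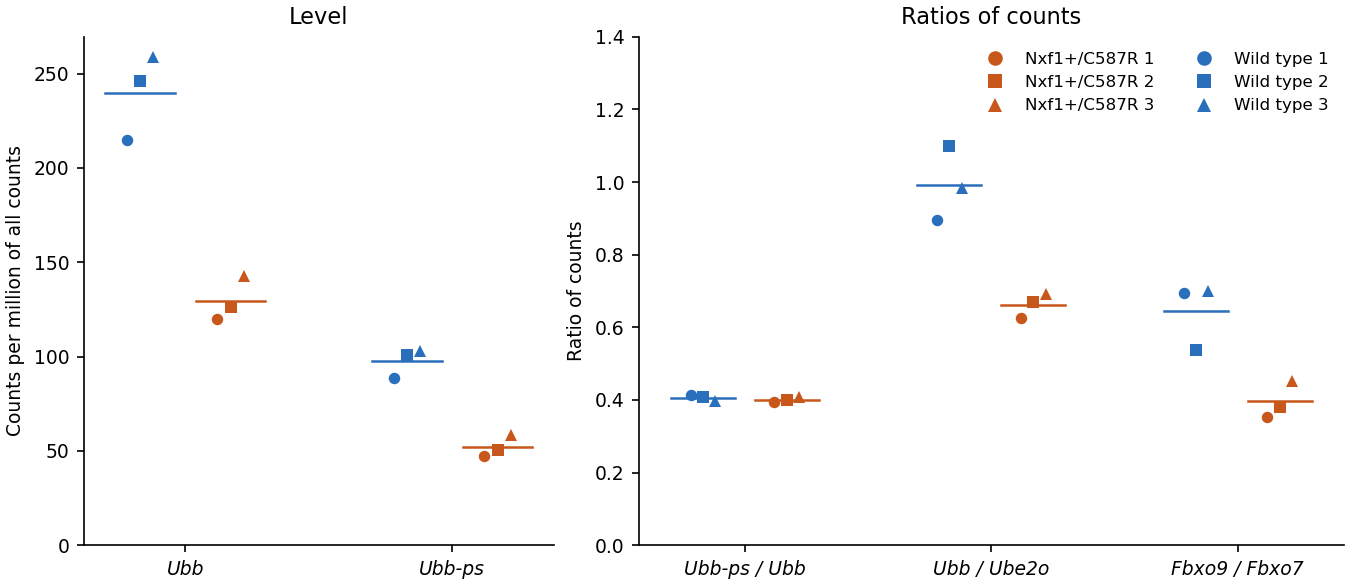
Left, CPM of all counts for Ubb and Ubb-ps in each library, and right, ratios of counts within each library. Blue points are wild types, orange points mutants, shapes mark the batch and bars are group means (n = 3). The ratio of Ubb-ps to Ubb is alike in both groups (0.401 and 0.407). Ubb to Ube2o (0.626 to 0.692 against 0.895 to 1.10) and Fbxo9 to Fbxo7 (0.354 to 0.452 against 0.537 to 0.701) are lower in every mutant. The share of all genes tested without overlap over Ube2o or Fbxo7 was not computed.

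**Figure D5:**
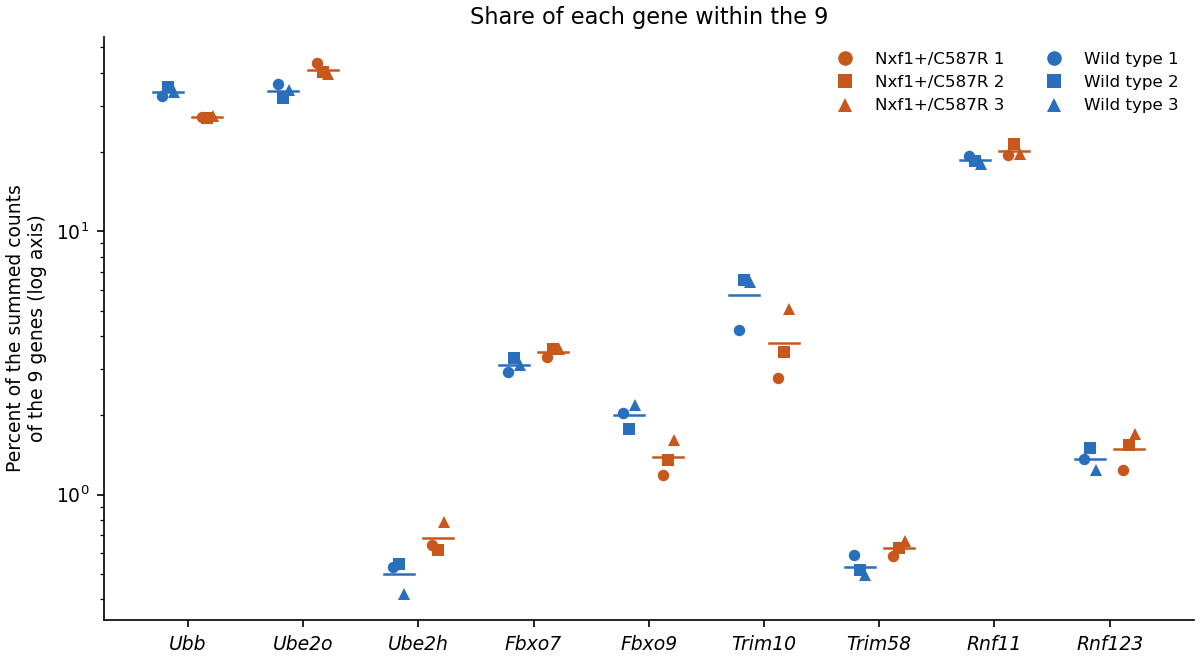
Share of each gene in the summed counts of the 9 genes (vertical log axis, percent), per library. Blue points are wild types, orange points mutants, shapes mark the batch and bars are group means (n = 3). The share of Ubb is 27.0 to 27.4% in the mutants and 32.6 to 35.2% in the wild types, and that of Ube2o is 39.6 to 43.5% against 32.0 to 36.4%.

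The profile over the 6 libraries was also compared between genes, as the root mean square difference of log2 CPM (TMM) after each gene was centred on its own mean. This describes the same 6 libraries and has no test. Among the 9, Fbxo7 and Rnf11 were most alike (0.0834), and Ube2h and Trim10 least (0.626). Among genes with a mean of at least 20 CPM, the nearest to Ubb were Ubb-ps (0.0248) and Isg20 (0.0474), against a median of 0.345 over 173 genes. The nearest to Ube2o were Fam117a (0.0517) and the heme transporter gene Slc48a1 (0.0610), and to Rnf11 Bpgm (0.0564), which makes 2,3-bisphosphoglycerate, and the theta globin gene Hbq1b (0.0624). Trim58 was nearest to Aldh1a1 (0.0518) and Tmbim6 (0.0699), and Fbxo7 to Oip5os1 (0.0449) and Sh3glb1 (0.0487). For Rnf123 the nearest were Taldo1 (0.0775) and Hagh (0.0898), and for Ube2h Plaat3 (0.0892) and Capns1 (0.109). The nearest genes were farther for Fbxo9 (Atp5b at 0.148 and Gabarapl2 at 0.1696) and Trim10 (Dhrs11 at 0.1703 and the antioxidant gene Gpx1 at 0.181). The median difference from the genes compared was also larger for both, 0.461 for Fbxo9 and 0.575 for Trim10. It was 0.209 to 0.345 for the rest of the 9.

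The rest of the ubiquitin pathway was mostly uncalled with TMM (edgeR). Of the E2 enzymes outside the 9, 12 of 33 listed were tested and 1 was called, Ube2l6, which was higher. It had 93578, 85124 and 88612 counts in the mutants and 74132, 70130 and 79867 in the wild types, and the log2 difference was 0.84 under TMM (edgeR adjusted p = 0.00671) and 0.29 under total counts (adjusted p = 0.00873). The TMM call was lost without mutant library 2 or batch 1 (adjusted p = 0.0566 and 0.0827). Ube2r2, with 14884 to 16220 counts in mutants and 15433 to 15843 in wild types, had a TMM log2 fold change of 0.57 (edgeR adjusted p = 0.0784) and 0.03 with total counts. It passed with DESeq2 (adjusted p = 0.0220), at a mean count of at least 50 (0.0352), with filtering before TMM and batch added (0.04996), and on leaving out mutant 3 or wild type 2 (0.0402 and 0.0195).

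Of the RING ligases and associated proteins outside the 9, 44 of 90 were tested and 1 was called, the receptor protein gene Dcaf12, with 2798, 2796 and 2931 counts in the mutants and 2770, 2469 and 2787 in the wild types. Its log2 fold change was 0.67 with TMM (edgeR adjusted p = 0.0246) and 0.12 with total counts (adjusted p = 0.442). The 2 most abundant, Marchf2 and Rnf10, had TMM values of 0.43 and 0.17 (edgeR adjusted p = 0.217 and 0.722). Among the deubiquitinases, which remove ubiquitin, 14 of 67 were tested and Usp12 was called higher. It had 113, 98 and 86 counts in the mutants and 81, 72 and 90 in the wild types, a log2 fold change of 0.89 with TMM (edgeR adjusted p = 0.0337) and 0.32 with total counts (adjusted p = 0.341). Usp15 had 288, 348 and 362 counts in the mutants and 526, 682 and 677 in the wild types, with −0.37 by TMM (edgeR adjusted p = 0.412) and −0.89 by total counts (adjusted p = 0.00336). Without any one of mutant libraries 1 and 2, wild-type library 3 or the 3 batches, the TMM call of Dcaf12 was lost (adjusted p = 0.0993 to 0.161), and that of Usp12 did not survive leaving out either mutant library 1 or 2, either wild-type library 2 or 3, or batch 1 or 2 (0.0510 to 0.297). TMM without globin genes also ended both calls (edgeR adjusted p = 0.0508 and 0.0510), and DESeq2 did not call Usp12 (adjusted p = 0.0543, and 0.367 after batch was added).

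No E1 enzyme was called (2 of 8 tested, the ubiquitin E1 gene Uba1 with 24 to 49 counts in every library and the Isg15 E1 gene Uba7 with 37 to 84). None of 8 cullin-RING core and neddylation genes, led by Elob and Cul4a, was called. None of 14 HECT ligases, led by Ube3b and Ube3c, of 11 ubiquitin receptors and shuttles, among them Tax1bp1, and of 12 named partners of the 9, led by Psmf1 and Ubac1, was called either. Of 8 F-box genes outside the 9 that were tested, Fbxo30 was called with batch as a term (log2 fold change 1.05, edgeR adjusted p = 0.0414). Without that term it was not called (1.05, adjusted p = 0.0549). Its counts were 24 to 31 in the mutants and 16 to 25 in the wild types. Fbxo30 also passed with RLE factors (0.0451) and without mutant library 3 or batch 3 (0.0291 and 0.0343). It did not pass with total counts (edgeR adjusted p = 0.295), with DESeq2 (adjusted p = 0.371) or on leaving out any other library or batch (edgeR adjusted p = 0.0675 to 0.393). None of the 8 TRIM genes tested outside the 9 was called. Among the lists with at least 2 tested genes outside the 9, the median TMM log2 fold change ran from −0.15 for the CTLH subunits and −0.14 for receptors and shuttles to 0.11 for the F-box genes outside the 9, beside −0.0022 for all genes tested. With total counts the same lists held between 0 and 5 genes called lower each and 1 called higher in all, Ube2l6.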

How the data were processed

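Per the labels' protocols, red cell RNA with a polyA tail from 6 mice went into Illumina TruSeq RNA v2 libraries, a kit that does not mark strand. The deposited files hold raw read counts per Entrez gene and a gene length, 1 file per library, per the file headers. CASAVA 1.8.2, Subread and featureCounts and the build mm10 are named in the submitters' processing notes. Neither their versions, apart from that of CASAVA, nor the gene annotation or the settings for strand and multi-mapped reads are given in the sources used here. Symbols came from RefSeq for 25275 genes and from GENCODE for 18, gene positions and promoters from RefSeq on GRCm38.p6, and the 1886 genes with no symbol (1.39% of counts) stayed in the fits. Of 506 entries in the gene lists, 504 were matched (Hbb-bt and Ahsp were not).

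The main test was edgeR 4.0.16 (R 4.3.3), quasi-likelihood F test with robust estimates: TMM factors (0.709 to 1.33) over all genes with a count, then the filterByExpr count filter by group, a model of genotype alone, and Benjamini-Hochberg adjusted p-values over the 2693 genes tested, with genes called at adjusted p under 0.05. The TMM factors were 0.709, 0.796 and 1.01 in mutants 1 to 3 and 1.33, 1.05 and 1.26 in wild types 1 to 3, without overlap. SE is the log2 fold change over the square root of F. The alternatives were batch as a term, RLE factors, total counts, TMM without globin genes or without mitochondrially encoded, hepatocyte and pancreas genes, other count filters, DESeq2 1.42.0, and leaving out each library or batch. Filtering before TMM was added after the data were seen. The batch label is also the replicate number and pairs the libraries, although same-batch libraries did not deviate together (correlations −0.106, −0.117 and −0.0244 over 2693 genes). RPKM and CPM were computed from the counts. Single values were compared with 2-sided exact permutation tests. Each library is a separate mouse. Intervals of counting error are not given, since the reads carry no molecular identifiers.

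The genes and lists were chosen with earlier results of these data known. Named genes are the 9, Nxf1, up to 4 called and the 2 most abundant genes (by mean CPM) of each of 12 pathway lists, and the 2 genes nearest in profile to each of the 9 at a mean of at least 20 CPM. Genes named outside this rule (Ubb-ps, Rps27a and Ypel5, overlapping genes, and the genes next below the 9 in their family) were chosen after their values were seen. A few genes that the rule would name are not reported here.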

Additional observations from a re-analysis of the deposited data

How the results depend on the processing

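The TMM direction of all 9 genes held with batch as a term (the replicate block), RLE factors, either changed gene set for TMM, either count filter, both DESeq2 fits, and filtering before TMM with and without batch. Total counts lowered the median of all genes to −0.53 and put Ube2o at −0.31, Ube2h at −0.10, Fbxo7 at −0.41, Trim58 at −0.32, Rnf11 at −0.45 and Rnf123 at −0.42, and, outside the 9, Marchf2 at −0.12, Rnf10 at −0.36 and Psmf1 at −0.39. With total counts and the replicate block these were −0.31, −0.11, −0.41, −0.33, −0.46, −0.45, −0.12, −0.36 and −0.40. Leaving out 1 library or batch gave 0.069 to 0.45 for Ube2o, 0.33 to 0.64 for Ube2h, −0.64 to −0.42 for Fbxo9, 0.16 to 0.31 for Trim58, −0.92 to −0.47 for Trim10, 0.0023 to 0.26 for Rnf123, −0.55 to −0.19 for Ubb, −0.051 to 0.29 for Fbxo7, −0.030 to 0.27 for Rnf11, −0.33 to 0.060 for Nxf1, −0.34 to 0.018 for Ranbp10, −0.23 to 0.044 for Wdr26 and −0.010 to 0.33 for Psmf1. Leaving out batch 1 gave the negative values of Fbxo7 and Rnf11. Of the 9, the number called lower was 0 in the main fit and with the replicate block, 4 with total counts, 5 with total counts and the block, 1 with filtering before TMM and the block, and 0 to 1 when a library or batch was left out, and none was called higher. Over all genes 176 were higher and 19 lower. Higher counts were 192 with the block, 115 with total counts, 382 with no filter, 85 at a mean count of at least 50 and 145 to 255 on leaving out a library or batch. Lower counts were 30 with the block, 245 and 361 with total counts without and with it, 82 with no filter, 12 at a mean count of at least 50, 5 and 2 with DESeq2 without and with it, 30 and 59 with filtering before TMM without and with it, and 2 to 65 on leaving out a library or batch, with 65 reached without wild-type library 1. The block changed no call of the 9 in the main TMM fit. Measured outside globin genes, the sum of the 9 was 0.437% in mutants and 0.620% in wild types. Ranked among all genes with a count, Trim58 was at 691 in place of 674. The cause of these shifts was not tested. Depth limits Ube2h and Trim58, with 39 to 60 counts per library.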
